A study of Mus musculus with 32 samples.

Results

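The fibrillar collagens described here were the 7 genes Col1a1, Col1a2, Col3a1, Col5a1, Col5a2, Col5a3 and Col11a1, chosen by name out of the 25700 genes counted in 32 RNA-sequencing samples of mouse tendon assembloids, and all 7 passed the filter on low counts in every comparison. An assembloid is a tail tendon fascicle (the core) held in clamps inside a collagen-1 hydrogel, and its cores and hydrogels were sequenced separately after 7 days of culture. The 12 hydrogel samples had been seeded with fibroblasts from wildtype Achilles tendons, which the sample labels call progenitors, and surrounded a core labelled IL-6 knock-out (KO, n = 6) or a wildtype (WT) core (n = 6). The 20 core samples were WT core // macrophages, KO core // fibroblasts, WT core // fibroblasts, KO core // cell-free and WT core // cell-free (n = 4 each). All mice were of the line B6.129S2-Il6tm1Kopf/J, Il-6-/- for cores labelled KO and Il-6+/+ otherwise, and were 12 to 15 weeks old. The seeded fibroblasts were mixed cells pooled over several mice, each core pool came from 1 mouse, and a hydrogel pool also held cells that had moved out of its core. The sources used here do not give where the macrophages came from. By the labels the allele differs only in the cells of the core, since the seeded fibroblasts were wildtype around either core.

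Fibrillar collagens are triple helices of long chains that are secreted as procollagens, trimmed at both ends and packed side by side into the fibrils that bear load in tendon. Col1a1 and Col1a2 encode the chains of type I collagen, the bulk of tendon fibrils, and Col3a1 encodes the single chain of type III collagen, which forms thin fibrils in healing and loose connective tissue. Col5a1, Col5a2 and Col5a3 encode chains of type V collagen, a minor collagen that starts fibrils and limits their width, and Col11a1 encodes a chain of type XI collagen, which does the same chiefly in cartilage and also in developing tendon. A rise of type III relative to type I collagen is a known feature of tendon repair and tendinopathy, which is why the ratio of the 2 transcripts was followed.

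Start-site sequence was available for 5 of the 7 genes in RefSeq (assembly GRCm38.p6), and the 150 bases before the outermost annotated start are shown for the type I gene, for the pair of genes that rose together beside fibroblasts and for the type V gene that moved apart from the rest. Letters run 5′ to 3′ on the strand of the gene, and capitals mark CCAAT and GGGCGG on either strand (ATTGG and CCGCCC when read from the other strand), 2 motifs that do not overlap each other.
Col1a2, plus strand, chr6:4505468-4505617: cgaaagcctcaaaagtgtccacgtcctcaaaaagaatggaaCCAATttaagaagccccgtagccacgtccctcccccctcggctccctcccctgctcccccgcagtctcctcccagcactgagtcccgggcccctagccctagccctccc
Col3a1, plus strand, chr1:45311388-45311537: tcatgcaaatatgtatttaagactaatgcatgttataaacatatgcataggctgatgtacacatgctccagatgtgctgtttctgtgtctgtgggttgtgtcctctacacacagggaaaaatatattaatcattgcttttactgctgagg
Col5a1, plus strand, chr2:27886231-27886380: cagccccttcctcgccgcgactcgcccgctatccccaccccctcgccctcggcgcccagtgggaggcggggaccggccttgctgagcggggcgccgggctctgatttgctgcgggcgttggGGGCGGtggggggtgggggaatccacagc
Col5a3, minus strand, chr9:20815118-20815267: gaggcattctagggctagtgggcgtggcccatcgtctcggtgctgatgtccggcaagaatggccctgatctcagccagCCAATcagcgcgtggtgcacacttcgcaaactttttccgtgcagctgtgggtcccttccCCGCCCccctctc
The windows of Col1a2 and Col5a3 each held 1 CCAAT, whose first base lay 109 and 72 bases before the start. Those of Col5a1 and Col5a3 each held 1 GGGCGG, and that of Col3a1 held neither motif. In the 32851 RefSeq promoter windows of this length, 24.5% held CCAAT and 28.6% held GGGCGG, so that a match alone sets none of these genes apart. The G and C share was 37.3% in the Col3a1 window and 76.0% in that of Col5a1, against a mean of 54.8% over all windows. Col3a1 and Col5a2 are direct neighbours on chromosome 1, with no annotated gene between them, and the other 5 genes lie on chromosomes 11 (Col1a1), 6 (Col1a2), 2 (Col5a1), 9 (Col5a3) and 3 (Col11a1).

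Total counts per sample ran from 20360289 to 59860703, so that even the least abundant member, Col5a3, had at least 657 counts in every sample, and the spread between samples, not counting error, limited the comparisons. Levels are given as counts-per-million (CPM) after scaling by TMM, a method that sets the libraries to a common baseline. Il6 itself was not lower in groups labelled KO. It had 5.63 to 40.0 CPM in hydrogels around cores labelled KO and 4.58 to 10.4 CPM in hydrogels around WT cores. It had 10.5 to 37.1 CPM in KO core // fibroblasts and 4.96 to 11.8 CPM in WT core // fibroblasts. Cell-free cores had 6.51 to 20.5 CPM where labelled KO and 1.90 to 11.7 CPM where WT. None of these differences had an adjusted p below 0.05 in edgeR's quasi-likelihood test (0.480 for cores beside fibroblasts). The log2 fold change, labelled KO over WT, was 1.03 in hydrogels (unadjusted p of 0.0376) and 1.30 in cores beside fibroblasts (unadjusted p of 0.00762). By the thresholds on unadjusted p used below for these pairs, Il6 was called higher where labelled KO in both. The seeded fibroblasts were wildtype, so only the cell-free cores held no seeded wildtype cells (unadjusted p of 0.174). The paper measured IL-6 protein in the supernatants of WT and KO cores, which was not re-examined here. A count per gene takes in reads from any exon, also from those outside the altered part of the allele, so it does not test the genotype, and KO is used below only as a label. The tendon markers Scx and Tnmd were present in all groups (group means 10.2 to 22.1 and 93.3 to 293 CPM). Of 10 macrophage markers, all were detected in all 7 groups, with a summed level of 5124 to 11770 CPM in WT core // macrophages and 9626 to 13525 CPM in WT core // cell-free. Hydrogel replicate 5 around a core labelled KO stood apart, with a macrophage marker sum of 2078 CPM against 11597 to 30571 CPM in the other 5, and WT core // fibroblasts replicate 2 had the lowest level of its group for 6 of the 7 members and for the tendon markers (11545 against 15913 to 18390 CPM). In these bulk samples, fewer cells of a type and less RNA per cell cannot be told apart.

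The 7 genes together took up 2.02% to 6.94% of all counts in a library, in cores and hydrogels alike. Most of these counts came from Col1a1, Col1a2 and Col3a1. Per kilobase of transcript, Col1a2 was the highest of the 7 in every core group (group means 2210 to 3629 CPM per kb), with Col1a1 (1030 to 1980 CPM per kb) and Col3a1 (944 to 1993 CPM per kb) next. In hydrogels, Col1a2 (2364 CPM per kb around cores labelled KO and 2571 CPM per kb around WT cores) and Col3a1 (2096 and 2363 CPM per kb) were closer together, and Col1a1 followed (1703 and 2068 CPM per kb). Col5a2 was the leading type V chain (238.3 to 479 CPM per kb), above Col5a1 (55.9 to 193 CPM per kb), Col11a1 (33.9 to 80.0 CPM per kb) and Col5a3 (8.66 to 37.8 CPM per kb). In the makeup of the 7 genes by counts per kb, Col3a1 had its largest mean share in hydrogels around cores labelled KO (33.1% ± 7.7, SD, n = 6) and its smallest in WT core // cell-free (19.9% ± 4.9, n = 4). Col1a2 ran the other way, with 32.9% ± 4.5 in those hydrogels and 48.5% ± 3.7 in WT core // cell-free, while the mean share of Col1a1 stayed between 21.2% and 26.3% in all 7 groups.

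**Figure D1:**
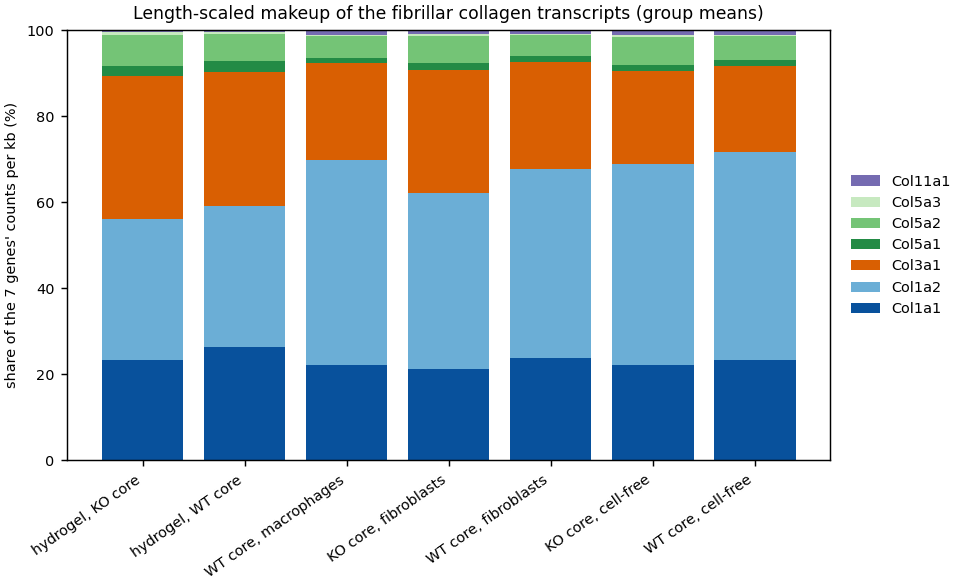
Mean share of each fibrillar collagen in the summed counts per kilobase of the 7 genes (y axis, percent), by group (x axis), with 1 stacked bar per group of 6 hydrogel or 4 core samples. The Col3a1 share was widest in the hydrogels (33.1% around cores labelled KO and 31.0% around WT cores) and narrowest in WT core // cell-free (19.9%).

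Ordered by mean level, the 7 groups differed little from one neighbour to the next. Of the 6 steps between neighbouring groups, none exceeded the larger SD of the pair for Col1a1, Col5a2 and Col11a1. For Col1a2, WT core // fibroblasts (19407 ± 5631 CPM) stood a step above hydrogels around WT cores (13748 ± 3621 CPM), by barely more than that SD, and the remaining groups had means of 11819 to 13008 CPM. Col3a1 fell into a higher set, made of both hydrogel groups and both fibroblast core groups (9443 to 13147 CPM), and a lower set of macrophage and cell-free cores (5252 to 5849 CPM). Col5a1 split at the same place, with 842 to 1619 CPM in the higher set and 470 to 587 CPM in the lower. Col5a3 had 3 tiers, at 226 to 231 CPM in hydrogels, 106 to 145 CPM in cores with fibroblasts or without cells, and 53.0 CPM in cores beside macrophages. Col11a1 was the only member whose 2 lowest group means were those of the hydrogels.

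**Figure D2:**
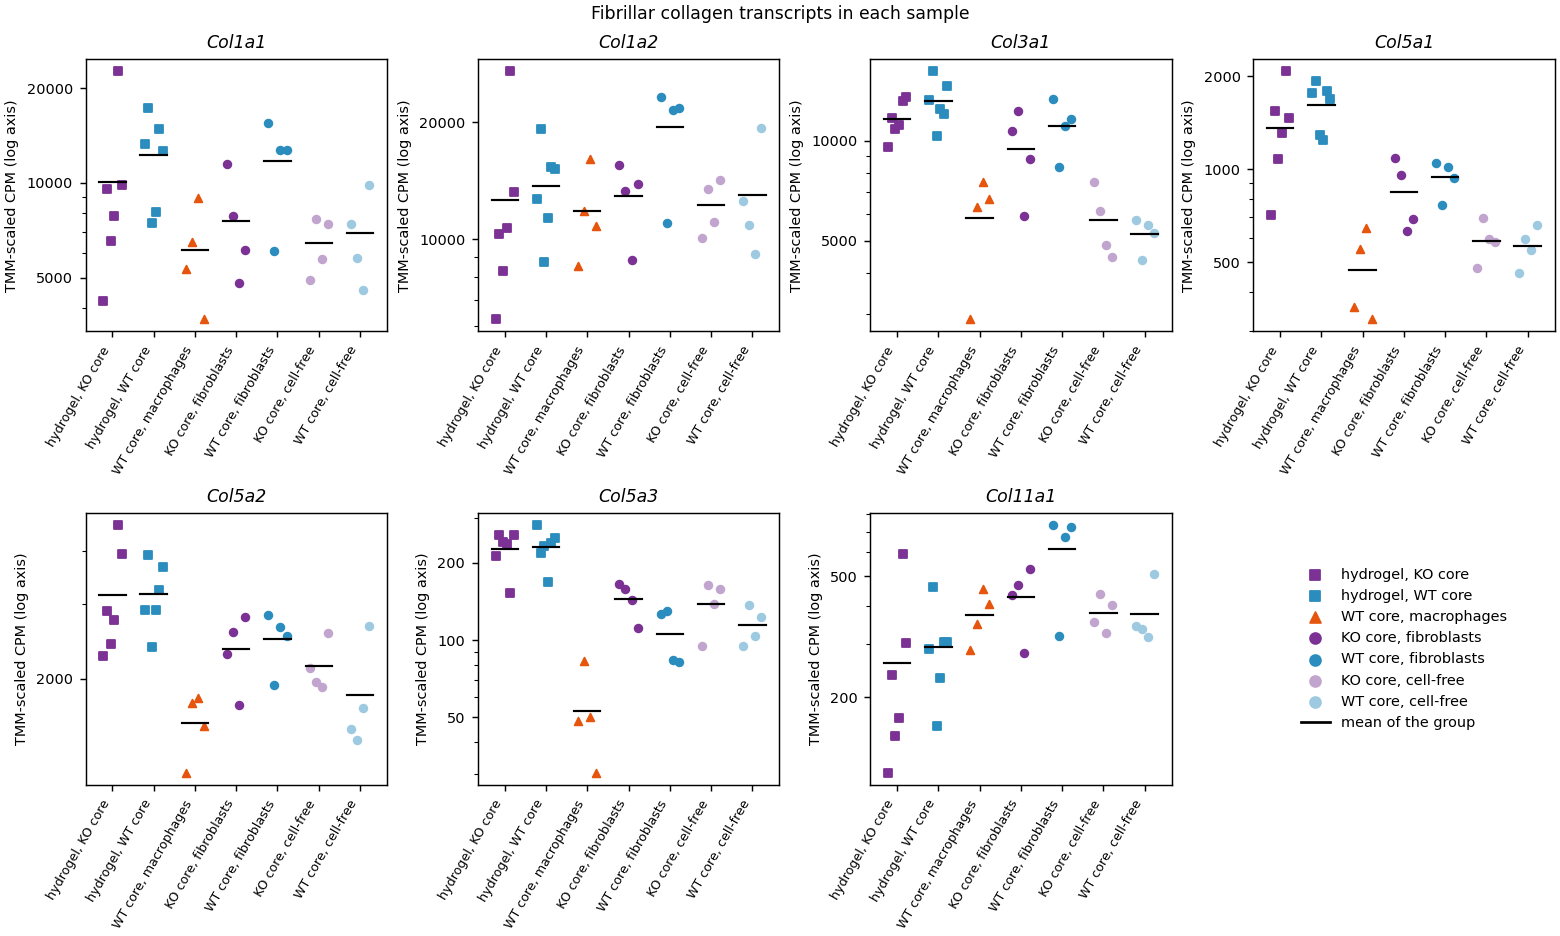
TMM-scaled CPM (y axes, log scale) of the 7 fibrillar collagens in each of the 32 samples, with 1 panel per gene and 1 point per sample. The groups run along the x axes, with KO as labelled, and black lines are group means. Col5a3 was lowest in WT core // macrophages (30.5 to 82.9 CPM), and the Col11a1 means of the hydrogels (260 CPM around cores labelled KO and 292 CPM around WT cores) lay below those of all core groups (373 to 613 CPM).

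Whether fibroblasts around the core change its matrix transcripts was asked by comparing WT core // fibroblasts with WT core // cell-free. Type III collagen and the first type V chain were higher in core samples beside fibroblasts, which may hold seeded cells that had moved in. Col3a1 had 13373, 8315, 11054 and 11606 CPM beside fibroblasts, against 5773, 4378, 5584 and 5271 CPM beside cell-free hydrogels. Col5a1 had 1051, 763, 1018 and 939 CPM beside fibroblasts, against 462, 593, 547 and 660 CPM beside cell-free hydrogels. For both genes all 4 fibroblast samples lay above all 4 cell-free samples, as 12.3% of the genes measured did in either direction. The log2 fold change was 1.09 (standard error 0.21) for Col3a1 and 0.75 (standard error 0.14) for Col5a1, with adjusted p of 0.0281 and 0.0234 in edgeR's quasi-likelihood test and p = 0.0286 for each in an exact permutation test, the smallest that 4 against 4 samples can give. With an adjusted p below 0.05 and a log2 fold change beyond 0.5, these 2 of 7 members were called higher and none lower, where 2.61% of the 16188 genes tested were called (244 or 1.51% higher and 179 lower).

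The type I chains and Col11a1 had estimates of a similar size and a wider spread. Col1a1 had 15491, 6103, 12698 and 12675 CPM beside fibroblasts, against 7434, 5786, 4577 and 9871 CPM beside cell-free hydrogels, which gave a change of 0.78 on the log2 scale (standard error 0.33, adjusted p of 0.213). Col1a2 had 23282, 11041, 21511 and 21791 CPM beside fibroblasts, against 12549, 10918, 9194 and 19372 CPM (0.59, standard error 0.33, adjusted p of 0.339). Col11a1 had 736, 319, 674 and 723 CPM beside fibroblasts, against 343, 335, 314 and 508 CPM (0.73, standard error 0.25, adjusted p of 0.138). In each of the 3 genes fibroblast replicate 2 lay inside the cell-free range and the other 3 fibroblast samples above it. Col5a2 and Col5a3 had log2 fold changes of 0.46 and −0.11 (adjusted p of 0.251 and 0.777). The median over the members was 0.73, against −0.02 over all genes tested. Cell type markers moved in the same comparison. Of 7 tendon markers 1, Scx, was called higher (0.94, adjusted p of 0.0373), as was 1 of 7 fibroblast markers (medians 0.23 and 0.24). The paper takes the higher Scx and Sox9 of these cores as a sign of more fibroblasts with these markers. Seeded cells in the core could not be told apart from core cells here. Of 10 macrophage markers 9 had a negative log2 fold change (median −0.44) and 1, Csf1r, was called lower (−0.61, adjusted p of 0.0415), with summed levels of 8773 to 9397 CPM beside fibroblasts, against 9626 to 13525 CPM beside cell-free hydrogels. Of 5 chondrocyte markers 2 were called higher, Acan (2.89, adjusted p of 0.0223) and Sox9 (0.66, 0.0206), while Comp (0.43), Matn3 (−0.02) and Col2a1 (−0.35) were not called. Of 3 bone markers Ibsp was called higher (4.68, 0.0478), while Alpl (1.66) and Runx2 (0.01) were not called. Summed bone marker levels were 24.0 to 46.4 CPM beside fibroblasts, against 15.02 to 26.5 CPM. Of 4 endothelial markers 1, Kdr, was called lower (−0.90, adjusted p of 0.0416). The part of these cells in the collagen values was not tested. Calls in this comparison were sensitive to single libraries: Col3a1 lost its call (adjusted p of 0.0608 to 0.0934, log2 fold change 1.00 to 1.14) without cell-free replicate 1 or 2 or fibroblast replicate 1, 3 or 4, Col5a1 lost it (0.0579 to 0.0876) without cell-free replicate 1 or fibroblast replicate 1, 3 or 4, Col11a1 gained one without fibroblast replicate 2 (0.94, adjusted p of 0.0209) and by DESeq2 (0.74, 0.0338), and Col5a2 gained one without cell-free replicate 4 (0.71, adjusted p of 0.0326). With library totals in place of TMM both calls stayed while the calls over all genes turned to 179 higher and 453 lower and the median of all genes moved to −0.12, and with all groups in one fit both were lost (adjusted p of 0.0585 for Col3a1 and 0.0701 for Col5a1).

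Some genes that act on procollagen were called in the same comparison, in which 2.61% of all genes were. Of 26 measured genes for procollagen folding, processing and cross-linking, 5 were called higher and none lower (median log2 fold change 0.36). They were Plod2 (1.08, standard error 0.12, adjusted p of 0.00625) and Plod1 (0.70, standard error 0.09, adjusted p of 0.0106), which hydroxylate lysines of collagen chains, P4ha1 (0.93, adjusted p of 0.00831) and P4ha2 (1.56, adjusted p of 0.0110), catalytic subunits of prolyl 4-hydroxylase, and Loxl2 (1.19, adjusted p of 0.0102), a lysyl oxidase that starts cross-links. P4ha2 averaged 38.0 ± 9.4 CPM beside fibroblasts and 13.0 ± 3.3 CPM beside cell-free hydrogels (SD, n = 4 each). Of 8 genes for collagen breakdown and uptake, 4 were called higher and none lower: Mmp2 (0.97, adjusted p of 0.0110), a gelatinase, Mmp13 (0.88, adjusted p of 0.0326), a collagenase, Mmp9 (1.43, adjusted p of 0.0487), a second gelatinase, and Mrc2 (0.65, adjusted p of 0.0230), a receptor that takes up collagen. None of 16 genes for fibril assembly, 7 collagen receptors or 4 other fibrillar chains was called.

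In cores labelled KO, fibroblasts brought no member past the threshold. Col3a1 had 10724, 12334, 5920 and 8793 CPM in KO core // fibroblasts, against 7537, 6156, 4867 and 4463 CPM in KO core // cell-free, a change of 0.70 on the log2 scale (standard error 0.30, adjusted p of 0.395). Col5a1 had 1086, 960, 633 and 688 CPM in KO core // fibroblasts, against 478, 693, 596 and 583 CPM in KO core // cell-free (0.51, standard error 0.20, adjusted p of 0.341). In both genes the groups overlapped, since fibroblast replicate 3, and for Col5a1 also replicate 4, lay inside the cell-free range (6.09% of all genes did not overlap). The other 5 members had log2 fold changes of 0.06 to 0.22. None of the 7 was called, where 0.432% of 15965 genes were. A fit that blocked on the replicate number also called none of them, while it called 408 genes in all, against 69 without the block. Ogn, a small proteoglycan of the fibril surface, fell (−0.98, standard error 0.16, adjusted p of 0.0362), and P4ha2 rose (1.88, standard error 0.24, adjusted p of 0.0170), as the only called genes of the 5 collagen pathway lists. Among the cell type markers only Acta2, for smooth muscle and pericytes, was called (−1.23, adjusted p of 0.0463). Of 10 macrophage markers 8 had negative estimates (median −0.39), and none was called. The part of these cells in the collagen values of cores labelled KO was not tested. The difference between the fibroblast effect in cores labelled KO and that in WT cores was tested as an interaction: it was −0.40 (standard error 0.35, adjusted p of 0.985) for Col3a1, −0.25 (standard error 0.25) for Col5a1 and −0.56 (standard error 0.45) for Col1a1, and 0% of 16772 genes were called by edgeR (294 at an unadjusted p below 0.05 beyond the same fold, 1 by DESeq2).

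The core label was compared next, in cores with the same surroundings. Beside fibroblasts, type I collagen had lower means in cores labelled KO, which did not pass the thresholds in edgeR as fitted to this pair and passed them under some other settings. Col1a1 had 11473, 7839, 4801 and 6118 CPM in KO core // fibroblasts, against 15491, 6103, 12698 and 12675 CPM in WT core // fibroblasts, a change of −0.64 on the log2 scale (standard error 0.34, unadjusted p of 0.0891). Col1a2 had 15568, 13325, 8838 and 13893 CPM in KO core // fibroblasts, against 23282, 11041, 21511 and 21791 CPM (−0.59, standard error 0.30, unadjusted p of 0.0746). Col11a1 had 434, 468, 281 and 526 CPM in KO core // fibroblasts, against 736, 319, 674 and 723 CPM (−0.52, standard error 0.27, unadjusted p of 0.0783). In each of the 3 genes WT replicate 2 lay inside the range of the cores labelled KO, and the other 3 WT samples lay above it. Col5a3 went the other way, with 166, 159, 144 and 112 CPM in KO core // fibroblasts, against 127, 130, 83.6 and 82.2 CPM in WT core // fibroblasts (0.46, standard error 0.17, unadjusted p of 0.0244), short of the fold threshold. Col3a1, Col5a1 and Col5a2 had log2 fold changes of −0.23, −0.17 and −0.08.

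By the thresholds used in the study for this pair (unadjusted p below 0.05, log2 fold change beyond 0.5), none of the 7 members was called, where 2.44% of 16088 genes were (250 or 1.55% higher and 142 or 0.883% lower, and 319 higher and 113 lower with library totals only). No member separated the groups, as 4.43% of all genes did. In this edgeR fit no gene had an adjusted p below 0.05 (lowest 0.0723). The calls of members under other settings below rest on unadjusted p, with adjusted p of 0.234 to 0.999. Without WT replicate 2, Col1a1 (−0.85, unadjusted p of 0.0164), Col1a2 (−0.78, 0.0111) and Col11a1 (−0.74, 0.00295) were called lower and Col5a3 (0.57, 0.00926) higher. Col1a2 was also called lower by DESeq2 (−0.59, unadjusted p of 0.00761), with library totals only (−0.55, 0.0454) and without the filter on low counts (−0.60, 0.0338), and Col11a1 without the filter (−0.53, 0.0479) and with all groups in one fit (−0.53, 0.0373). Col1a1 was also called without KO replicate 1 (−0.91, 0.0245), and Col5a3 without WT replicate 1 (0.55, 0.0133) or KO replicate 4 (0.57, 0.00753). Of the pathway genes, Kera (−0.75, unadjusted p of 0.0189) and Ogn (−0.72, 0.0267), both small leucine-rich proteoglycans, and the cartilage collagen genes Col11a2 (−0.88, 0.0103) and Col2a1 (−0.62, 0.0246) were called lower, and P4ha2 was called higher (0.75, 0.0143). All 5 chondrocyte markers tested had negative log2 fold changes (median −0.62), and 3 were called lower, namely Acan (−1.34, unadjusted p of 0.0196), Matn3 (−1.82, 0.0272) and Col2a1 again, while the summed chondrocyte marker level was 787 to 1669 CPM in KO core // fibroblasts, against 1006 to 2261 CPM in WT core // fibroblasts. Col2a1 was at a low level, with means of 1.34 CPM in KO core // fibroblasts and 2.04 CPM in WT core // fibroblasts. Other marker lists also had calls at unadjusted p. Lower were Ibsp for bone (−1.99, 0.0436), Acta2 for smooth muscle and pericytes (−0.56, 0.0411) and Myh1 for skeletal muscle (−1.35, 0.00173). Of 7 fibroblast markers 1 was called lower, and of 7 tendon markers Egr1 was called higher (0.95, 0.0103) and Kera lower. The part of all these cells in the type I and XI collagen values was not tested. Beside cell-free hydrogels, the 7 members had log2 fold changes of −0.08 to 0.29 between cores labelled KO and WT cores, all with an adjusted p of 1.00 in edgeR, and 0% of 16065 genes were called (199 at an unadjusted p below 0.05 beyond the same fold, 14 by DESeq2). Col1a1, for example, had 4927, 7694, 5720 and 7426 CPM in KO core // cell-free, against 7434, 5786, 4577 and 9871 CPM in WT core // cell-free, and these ranges overlapped, as they did for all 7 members (1.77% of all genes did not overlap).

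**Figure D3:**
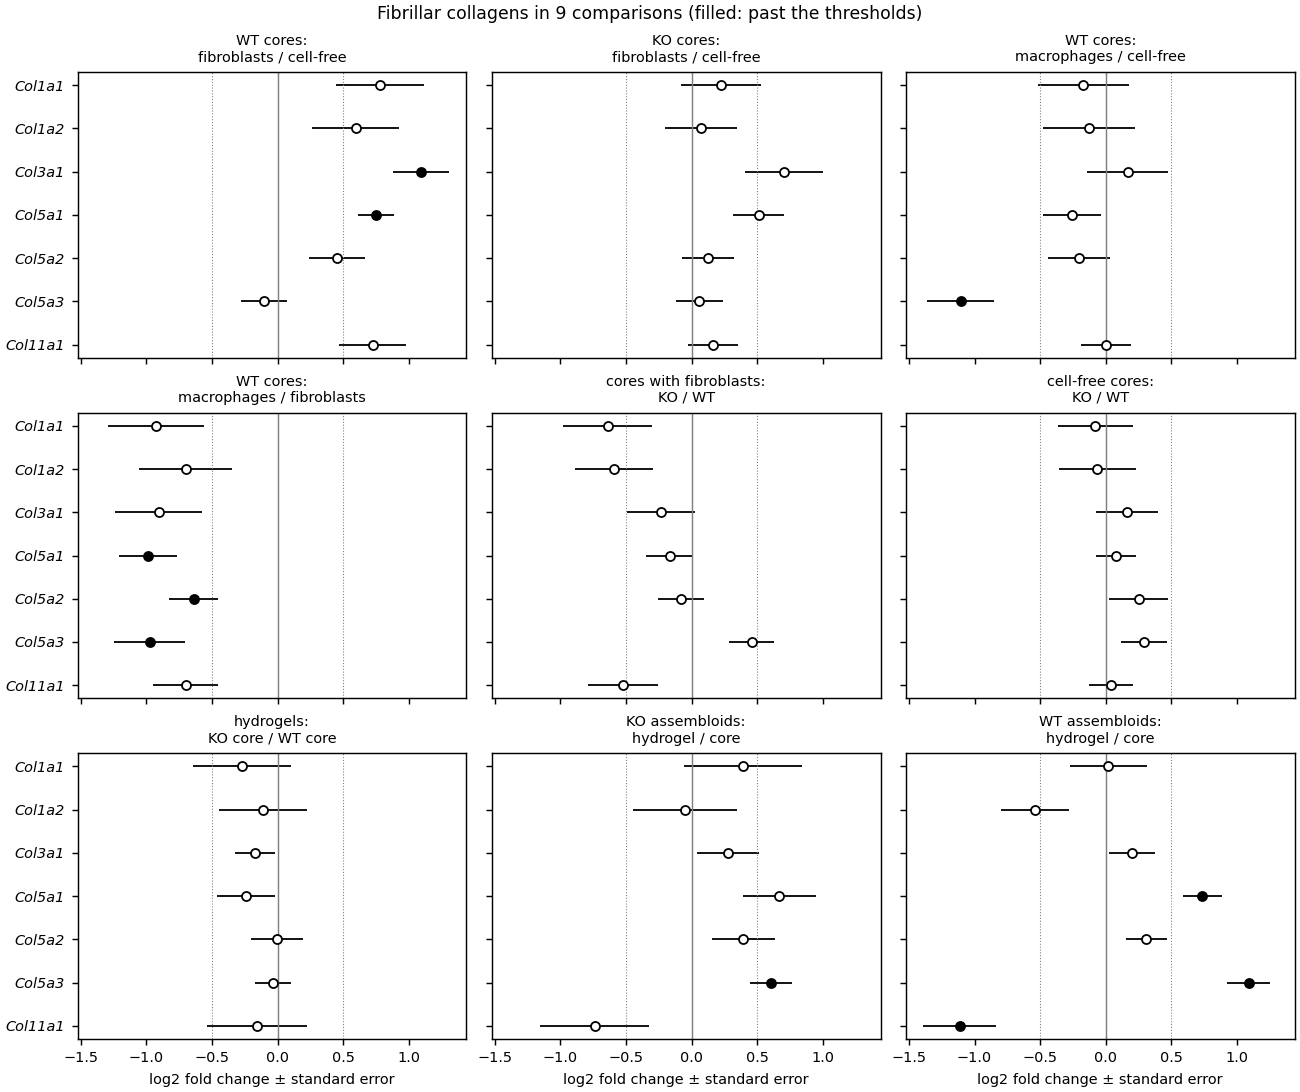
Log2 fold change with its standard error (x axes) of the 7 fibrillar collagens (y axes) in 9 comparisons, with the group named first in each panel title over the second. Filled points passed the thresholds (adjusted p, or unadjusted p in the KO / WT panels of hydrogels and of cores with fibroblasts), and dotted lines mark ±0.5. All 7 estimates were negative for macrophages over fibroblasts, of which 3 were past the thresholds, and no member was past them in the 3 KO / WT panels.

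Macrophages around a WT core went with a lower level of the rarest type V chain. Col5a3 had 48.4, 82.9, 50.1 and 30.5 CPM in WT core // macrophages, against 95.1, 137, 104 and 123 CPM in WT core // cell-free, so that no macrophage sample reached the lowest cell-free sample (14.2% of genes did not overlap in either direction). It fell by 1.10 on the log2 scale (standard error 0.25, adjusted p of 0.0340, exact permutation p of 0.0286). This was 1 of 7 members called, where 4.60% of 16441 genes were called and 3.85% called lower. The other 6 had log2 fold changes between −0.26 and 0.17, and no gene of the 5 pathway lists was called. Cell type markers moved as well. Of 10 macrophage markers 8 had negative estimates, and Itgam was called lower (−1.55, adjusted p of 0.00947). Of the endothelial markers Kdr was called lower (−2.04, 0.000917) and Pecam1 higher (1.68, 0.0430), and the skeletal muscle marker Myh4 was called higher (1.83, 0.0248). The part of these cells in the Col5a3 values was not tested. The Col5a3 call was lost without macrophage replicate 1 (adjusted p of 0.103) or 3 (0.115), without cell-free replicate 1 (0.0525), 2 (0.0926) or 4 (0.0852), and with library totals only (−0.99, adjusted p of 0.0619), which moved the median of all genes to 0.12.

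Set against WT core // fibroblasts, all 3 type V chains were lower beside macrophages. Col5a1 had 359, 552, 643 and 327 CPM in WT core // macrophages, against 1051, 763, 1018 and 939 CPM in WT core // fibroblasts (−0.99, standard error 0.22, adjusted p of 0.0159). Col5a2 had 1203, 1751, 1808 and 1553 CPM in WT core // macrophages, against 2822, 1936, 2654 and 2530 CPM (−0.64, standard error 0.19, adjusted p of 0.0393). Col5a3 had 48.4, 82.9, 50.1 and 30.5 CPM in WT core // macrophages, against 127, 130, 83.6 and 82.2 CPM (−0.98, standard error 0.27, adjusted p of 0.0329). The groups did not overlap for Col5a1, Col5a2 and Col3a1, as for 25.8% of all genes, and overlapped narrowly for Col5a3. Col3a1 had 2905, 6328, 7503 and 6661 CPM beside macrophages, against 13373, 8315, 11054 and 11606 CPM beside fibroblasts, yet its fold change (−0.91, standard error 0.33, adjusted p of 0.0747) did not pass, nor did those of Col1a1 (−0.93, adjusted p of 0.0942), Col11a1 (−0.70, 0.0713) and Col1a2 (−0.70, 0.171). The fit of all groups also called Col3a1 and Col11a1 lower, and DESeq2 called all 7 (adjusted p of 0.00797 for Col1a1 and 0.00356 for Col3a1).

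So 3 of 7 members were called lower, where 10.8% of 16370 genes were called (865 or 5.28% higher and 901 or 5.50% lower), and the median over the members was −0.91 against 0.01 over all genes. The call of Col5a1 held under every setting and every left-out library tried. That of Col5a2 was lost with the replicate block (adjusted p of 0.0534), with library totals only (−0.45, 0.0522) and without fibroblast replicate 1, 3 or 4 or macrophage replicate 1, 2 or 3 (0.0561 to 0.106), and that of Col5a3 with library totals only (−0.79, 0.0512) and without fibroblast replicate 1, 2 or 3 or macrophage replicate 1 or 3 (0.0540 to 0.0823). Col11a1 was called without fibroblast replicate 2 (−0.91, adjusted p of 0.0129). Of the cell type markers, 1 of 7 for tendon, 2 of 7 for fibroblasts, 2 of 5 for chondrocytes and 1 of 3 for bone were also called lower, and none of these lists had a call higher. Other lists had calls both ways. Of 10 macrophage markers 5 had positive and 5 negative estimates, with Csf1r called higher (0.84) and Itgam lower (−1.09). Pecam1 (1.90) and Des (1.98) were called higher, and Kdr (−1.12) and Notch3 (−0.65) lower, as endothelial or smooth muscle and pericyte markers. The part of these cells in the collagen values of this comparison was not tested. Library totals turned the calls over all genes to 2223 higher and 479 lower and moved the median of all genes to 0.20. Of the procollagen processing genes, in a comparison where 5.50% of all genes were called lower, 6 of 26 were called lower and none higher, led by P4ha1 (−1.05, adjusted p of 0.00344), Plod1 (−0.69, 0.00362), Plod2 (−1.10, 0.00455) and P4ha2 (−1.53, 0.00872). Of 16 fibril assembly genes, Fn1 (−1.41, adjusted p of 0.0221), the fibronectin on which collagen is laid down, Bgn (−0.86, 0.0230), Sparc (−0.97, 0.0343) and Postn (−1.59, 0.0463) were called lower, and Thbs1 (1.33, 0.0240) higher. Of 8 breakdown genes, Mmp2 (−0.88, adjusted p of 0.00435), Ctsk (−0.87, 0.0170) and Mmp9 (−0.99, 0.0298) were called lower and the neutrophil collagenase gene Mmp8 (1.39, 0.0288) higher.

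In the hydrogels, the label of the embedded core made no difference that could be told from the spread between samples. Col1a1 ran from 4211 to 22573 CPM around cores labelled KO (median 8701), against 7473 to 17336 CPM around WT cores (median 12919). Col1a2 ran from 6246 to 27025 CPM around cores labelled KO (median 10517), against 8754 to 19178 CPM around WT cores (median 13919). Both genes had their highest value of all hydrogels in KO replicate 5 and their lowest in KO replicate 1, the samples with the lowest and the highest macrophage marker sum (2078 and 30571 CPM), and the part of these cells in the result was not tested. Col3a1 was steadier, at 9567 to 13587 CPM around cores labelled KO (median 11412), against 10360 to 16169 CPM around WT cores (median 12856). Col5a3 ran from 153 to 256 CPM around cores labelled KO, against 168 to 281 CPM around WT cores, and its lowest value was in KO replicate 5, where each of the other 6 members was the highest or second highest of its group. The groups overlapped for all 7 members (0.154% of all genes did not), and all 7 log2 fold changes were negative, from −0.27 (standard error 0.37) for Col1a1 to −0.01 (standard error 0.20) for Col5a2. None was called at unadjusted p, where 0.755% of 15227 genes were (77 higher and 38 lower, or 88 higher and 124 lower with the replicate number as a block), and none with the block. Without KO replicate 5, Col1a1 was called lower (−0.68, unadjusted p of 0.0309). Among the pathway genes only Itga2, a collagen-binding integrin subunit, was called (0.58, unadjusted p of 0.00996). Some cell type markers were called by the same rule. Egr1 for tendon was called higher (0.51, unadjusted p of 0.0438), and Acan for chondrocytes (−0.57, 0.0497) and Des for smooth muscle and pericytes (−0.61, 0.0447) lower. Of 7 fibroblast markers 1 was called higher and 1 lower. All tested chondrocyte, bone and smooth muscle and pericyte markers had negative estimates.

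Hydrogels were then compared with the cores of the same kind of assembloid. They held more Col5a1 and Col5a3 and less Col11a1 than the WT cores they surrounded. Col5a1 ran from 1241 to 1927 CPM in hydrogels around WT cores (median 1728), against 1051, 763, 1018 and 939 CPM in WT core // fibroblasts (0.74, standard error 0.15, adjusted p of 0.000838). Col5a3 ran from 168 to 281 CPM in these hydrogels (median 236), against 127, 130, 83.6 and 82.2 CPM in the cores (1.09, standard error 0.17, adjusted p of 0.000114). For both genes every hydrogel lay above every core, as did 55.3% of genes in either direction, and the exact permutation p was 0.00952 for each. Col11a1 ran from 161 to 462 CPM in hydrogels (median 296), against 736, 319, 674 and 723 CPM in the cores, and fell by 1.11 on the log2 scale (standard error 0.27, adjusted p of 0.00336), with core replicate 2 inside the hydrogel range. These 3 of 7 members stand beside 42.8% of 16037 genes called in this comparison (18.1% higher and 24.7% lower), a share near that of the members. Col1a1 did not separate the compartments (0.02, standard error 0.30), nor did Col3a1 (0.20, standard error 0.18, adjusted p of 0.320). Col1a2 had a log2 fold change of −0.54 (adjusted p of 0.0792), which was called with hydrogels and cores of the same title code set as blocks (−0.56, adjusted p of 0.00627), with library totals only (−0.57, 0.0400), by DESeq2 (−0.52, 0.0431) and without hydrogel replicate 2 (−0.66, 0.0414) or core replicate 2 (−0.72, 0.0170).

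In assembloids labelled KO, Col5a3 was again higher in the hydrogel, at 153 to 256 CPM (median 238.2), against 166, 159, 144 and 112 CPM in KO core // fibroblasts (0.61, standard error 0.16, adjusted p of 0.00785), although the lowest hydrogel, replicate 5, lay inside the core range. Col5a1 (0.67, standard error 0.28, adjusted p of 0.0647) and Col11a1 (−0.74, standard error 0.42, adjusted p of 0.157) were not called without the block and were called with the title code as a block (0.69, adjusted p of 0.00725, and −1.02, adjusted p of 0.000640). Col11a1 was also called without hydrogel replicate 5 (−1.15, adjusted p of 0.00552), whose 590 CPM lay above all 4 cores, and Col5a1 without hydrogel replicate 1 (0.86, adjusted p of 0.0141), without the filter (0.78, 0.0398), with all groups in one fit (0.70, 0.00840) and by DESeq2 (0.72, 0.0264). So 1 member of 7 was called without the block, where 41.6% of 16084 genes were (17.0% higher and 24.6% lower), and the groups overlapped for all 7, as they did not for 44.6% of genes. The macrophage marker sum was 2078 to 30571 CPM in these hydrogels and 8011 to 9565 CPM in their cores, and 9386 to 17617 CPM in hydrogels around WT cores and 8773 to 9397 CPM in WT core // fibroblasts. Markers of other cell types differed as well. Of the bone markers tested, 4 of 4 were called higher in hydrogels of assembloids labelled KO (median 4.69) and 5 of 5 in those with WT cores (median 4.31), with sums of 237 to 645 CPM over all hydrogels and 23.5 to 46.4 CPM over their cores. In both kinds of assembloid 3 of 4 Schwann cell markers (medians 2.01 and 1.94) and 3 of 5 chondrocyte markers (medians 2.10 and 1.96) were called higher. The other chondrocyte markers had negative estimates: Comp in both (−0.39 and −0.44), Col9a1 where labelled KO (−0.42) and Matn3 with WT cores. Of these only Matn3 was called (−1.87, adjusted p of 0.0123). Of 5 smooth muscle and pericyte markers 2 were called higher where labelled KO and 3 with WT cores. Of 7 fibroblast markers 3 were called lower where labelled KO and 4 with WT cores (medians −0.44 and −0.71), and none higher. Of 7 tendon markers 3 were called lower in hydrogels of assembloids labelled KO (median −0.90) and 6 in those with WT cores (median −1.22). The part of these cells in the collagen values was not tested.

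Other collagen genes were called in the same comparisons, in which 41.6% (labelled KO) and 42.8% (WT) of all genes were called. Col2a1, the type II collagen gene of cartilage, was higher in hydrogels around cores labelled KO (7.29 to 52.3 CPM) than in KO core // fibroblasts (1.02 to 1.56 CPM) and higher in hydrogels around WT cores (17.9 to 82.0 CPM) than in WT core // fibroblasts (1.69 to 2.92 CPM), with log2 fold changes of 4.21 and 4.40 (adjusted p of 0.000150 and 1.48e-05). Col11a2, a partner chain of Col11a1, was lower, at 1.04 to 22.2 CPM in hydrogels against 70.3 to 116 CPM in cores labelled KO (−3.87, adjusted p of 0.000696), and 2.69 to 16.3 CPM in hydrogels against 81.6 to 222 CPM in WT cores (−4.21, adjusted p of 4.58e-06). Of the procollagen processing genes 9 of 26 were called higher and 2 lower in hydrogels of assembloids labelled KO, where 17.0% of all genes were called higher and 24.6% lower. In those with WT cores 7 were called higher and 3 lower, where 18.1% of all genes were called higher and 24.7% lower. Over both directions together these shares were near those over all genes. By direction, the share called higher was above that of all genes and the share called lower was below it, which was not tested. Adamts2, which trims the amino end of procollagen, was called lower in both (−1.24 and −1.23), and Loxl3, a lysyl oxidase, higher in both (0.81 and 0.66). Among fibril assembly genes Postn (3.01 and 2.97), encoding periostin, and Thbs1 (2.92 and 2.86), encoding thrombospondin 1, rose in both, and Tnxb (−2.23 and −2.06), Prelp (−1.85 and −1.74) and Fmod (−1.52 and −1.46) fell in both. The collagen receptor gene Itga11 rose in both (1.67 and 1.48), and Itga1 fell in both (−1.24 and −1.20). Mmp14, a membrane-bound collagenase, rose in both (1.22 and 1.10), and the uptake receptor Mrc2 fell in both (−0.59 and −0.75). Every p behind these calls was adjusted over all genes tested and lay below 0.05.

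The ratio of Col3a1 counts to Col1a1 counts, taken within each library and so free of scaling, varied from sample to sample more than from group to group. It was 0.935, 1.57, 1.23 and 1.44 in KO core // fibroblasts, against 0.863, 1.36, 0.871 and 0.916 in WT core // fibroblasts. It was 1.53, 0.800, 0.851 and 0.601 in KO core // cell-free, against 0.777, 0.757, 1.22 and 0.534 in WT core // cell-free, and WT core // macrophages had 0.546, 0.977, 0.840 and 1.80. In hydrogels it ran from 0.582 to 2.27 around cores labelled KO (median 1.40), against 0.809 to 1.54 around WT cores (median 1.08). Groups overlapped in all 9 comparisons. Group means on the log2 scale ran from 0.40 in hydrogels around cores labelled KO, through 0.35 in KO core // fibroblasts and 0.15 in hydrogels around WT cores, to −0.35 in WT core // cell-free, and no step between neighbours exceeded the larger SD of the pair (0.33 to 0.71).

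The largest difference in the ratio was between KO core // fibroblasts and KO core // cell-free, at 0.51 on the log2 scale (standard error 0.33, exact permutation p of 0.171, adjusted p of 0.771 over the 9 comparisons). KO core // fibroblasts exceeded WT core // fibroblasts by 0.37 (standard error 0.23, exact p of 0.171, adjusted p of 0.771), and WT core // fibroblasts exceeded WT core // cell-free by 0.32 (standard error 0.29, exact p of 0.314, adjusted p of 0.771). Hydrogels around cores labelled KO exceeded those around WT cores by 0.25 (standard error 0.30, exact p of 0.435, adjusted p of 0.771), and WT core // macrophages differed from WT core // fibroblasts by −0.05 (standard error 0.39, exact p of 0.914). None of the 9 passed, while the smallest exact p within reach was 0.0286 for 4 against 4, 0.00952 for 6 against 4 and 0.00216 for 6 against 6 samples. Where hydrogel and core of a WT assembloid shared a title code, the hydrogel had the higher ratio in 4 of 4 pairs (mean 0.33, exact sign-flip p of 0.125, the smallest that 4 pairs allow), and in assembloids labelled KO it did in 3 of 4 (mean 0.15, exact p of 0.250).

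**Figure D4:**
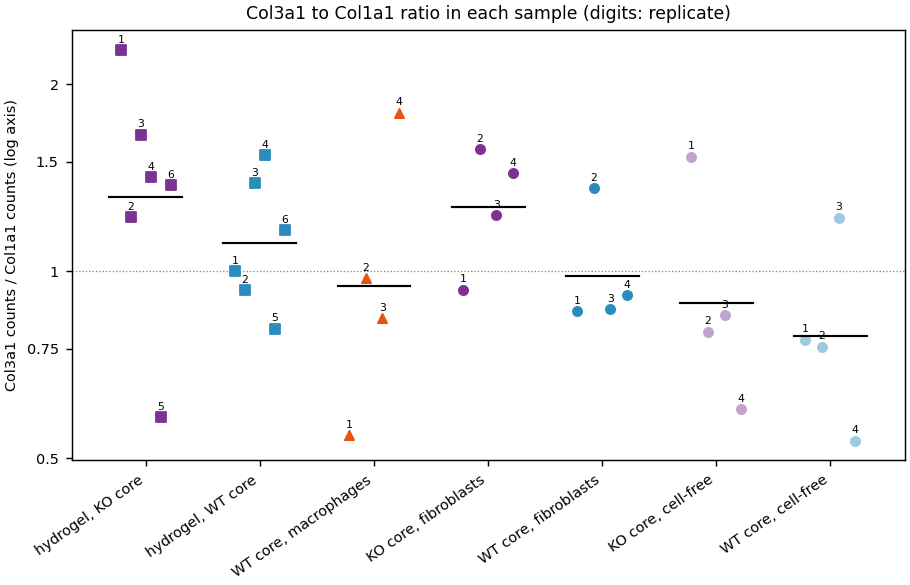
Col3a1 counts divided by Col1a1 counts (y axis, log scale) in each of the 32 samples, by group (x axis), with digits for the replicate and black lines for geometric means. The ratio spanned 0.582 to 2.27 within the hydrogels around cores labelled KO, and no group stood clear of its neighbour.

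Among themselves the members varied together from sample to sample, with Col5a3 apart. After the mean of each group was taken off the log2 CPM, the 15 pairs without Col5a3 had Pearson's r of 0.74 to 0.98 over the 12 hydrogels (Spearman's rho 0.72 to 0.99) and of 0.39 to 0.92 over the 20 cores (rho 0.34 to 0.89). The 6 pairs with Col5a3 had r of −0.39 to −0.05 over the hydrogels (rho −0.06 to 0.13) and of −0.18 to 0.56 over the cores (rho −0.10 to 0.51). The negative values in hydrogels rested on the outermost samples, since r became 0.01 to 0.56 once the 2 samples farthest from the median of the first gene of a pair were left out. The type I pair Col1a1 and Col1a2 had r of 0.97 over hydrogels and 0.89 over cores, and Col1a1 and Col3a1 had r of 0.76 and 0.39. These are descriptions over samples that share libraries and scaling, and no test was made of them.

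By the same measure, without the group means taken off, the genes most like the members in pattern were sought among 11992 genes. Over the 20 cores, Col1a2 (r = 0.92), C1qtnf6 (0.86), Bcan (0.85), Col6a2 (0.84) and Pycr1 (0.82) were most like Col1a1, Galnt5 (0.91), Spon2 (0.90), Col15a1 (0.90), Angptl1 (0.90) and Ncam1 (0.89) most like Col3a1, and Col1a2 (0.94), B3gnt9 (0.92), Fkbp10 (0.90), Tpst1 (0.88) and P3h1 (0.88) most like Col11a1. Fkbp10 and P3h1 encode endoplasmic reticulum proteins that act on procollagen, and Pycr1 makes proline. Over the 12 hydrogels, Ncl (0.98), Svil (0.98), Col1a2 (0.97), Tnn (0.97) and Cybrd1 (0.96) were most like Col1a1, Tmed9 (0.91), Sfrp1 (0.91), Lrp4 (0.90), Postn (0.90) and Gfra1 (0.90) most like Col3a1, and Cybrd1 (0.99), Kera (0.98), Clec11a (0.98), Col1a2 (0.98) and Kcnma1 (0.97) most like Col11a1. Col1a2 was the only gene named in both compartments for the same member, for Col1a1 and for Col11a1.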

How the data were processed

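Estimated counts per gene were deposited by the authors for 32 libraries (Illumina Stranded Total RNA with Ribo-Zero Plus), which the submitters' processing notes tie to kallisto 0.46.1 and GRCm39; the values were written as whole numbers. Reads that fit several genes are shared out by kallisto, and estimated counts of genes that overlap are less certain. Each comparison was fitted alone with edgeR 4.0.16 (R 4.3.3; filterByExpr, TMM, quasi-likelihood test). A call needed a log2 fold change beyond 0.5 and a Benjamini-Hochberg adjusted p below 0.05, or an unadjusted p where the study used one (KO / WT in hydrogels and in cores with fibroblasts). Adjusted p-values of the fits were adjusted over all genes tested, and those of the ratio over its 9 comparisons. Exact permutation p-values of single members were not adjusted. The Col3a1 to Col1a1 ratio and single members were compared by two-sided exact permutation tests (SciPy 1.17.1). Hydrogels and cores with the same core label were matched by the code in their titles, which the labels do not tie to the same assembloid.

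The members and gene lists were chosen with earlier results of these data known. Members were named in full, pathway genes where they were called, and for Col1a1, Col3a1 and Col11a1 the 5 genes of highest correlation. Group came from the sample labels. Each replicate was a pool, of core explants from a single mouse or of hydrogels. The seeded cells were also pooled, so the spread may be partly technical. Whether groups shared mice is not given by the labels. Counting error was small at 20360289 to 59860703 counts per library. Same-numbered samples deviated together in every pair (correlation over 0.1) for hydrogels KO / WT (0.17 to 0.53), KO core fibroblasts / cell-free (0.14 to 0.32), macrophages / cell-free (0.14 to 0.29) and macrophages / fibroblasts (0.13 to 0.18), as did title codes (0.19 to 0.38). The alternatives were RLE factors, library totals, TMM without the members, a stricter filter (10 or more counts in each sample) or none, other thresholds, all groups in one fit, a replicate block, DESeq2 1.42.0 and leaving out each library. The fits were tested on simulated data.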

Additional observations from a re-analysis of the deposited data

Results flagged for a closer look

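In 6 of 56 groups of values tested, 1 sample lay far from the others of its group, where chance gives about 1 in 20. Hydrogel replicate 5 around a core labelled KO had 22573 CPM of Col1a1, against 4211 to 9867 CPM in the other 5, and 27025 CPM of Col1a2, against 6246 to 13236 CPM. This sample also had the lowest macrophage marker sum of its group (2078 against 11597 to 30571 CPM), and the part of these cells was not tested.

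WT core // fibroblasts replicate 2 had 11041 CPM of Col1a2, against 21511 to 23282 CPM in the other 3, 319 CPM of Col11a1, against 674 to 736 CPM, and a Col3a1 to Col1a1 ratio of 1.36, against 0.863 to 0.916. Its tendon marker sum was 11545 CPM, against 15913 to 18390 CPM. WT core // cell-free replicate 4 had 508 CPM of Col11a1, against 314 to 343 CPM in the other 3.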

How the results depend on the processing

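Of 700 values of the members under other settings, 655 kept their direction and side of the threshold, 6 lost and 30 gained a call, and 9 changed sign, none of them called. Of 672 values with a library left out, 582 did so, 25 lost and 15 gained a call, and 50 changed sign. The calls of Col5a1 in macrophage / fibroblast cores, of Col5a1, Col5a3 and Col11a1 in WT hydrogels / cores and of Col5a3 in hydrogels / cores labelled KO held throughout. The limits lay in the spread between the 4 core or 6 hydrogel samples of a group, not in depth, and the cause of each change below was not tested. By the paper, all hydrogel pools but only some core pools passed its checks of RNA integrity and concentration. RNA integrity per sample was not examined here.

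The number of genes called moved by over 1.5 times as follows. In hydrogels KO / WT (115) it was 404 without the fold threshold, 0 with adjusted p, 296 without the filter, 212 with the replicate block, 278 with all groups in one fit and 216 with DESeq2. In WT cores fibroblasts / cell-free (423) it was 695 without the fold threshold, 1221 with unadjusted p, 207 with all groups in one fit and 780 with DESeq2. In fibroblast cores KO / WT (392) it was 1428 without the fold threshold, 0 with adjusted p in edgeR and 668 without the filter. In cell-free cores KO / WT (0) it was 199 with unadjusted p, 1 with the replicate block, 1 with all groups and 14 with DESeq2. In KO cores fibroblasts / cell-free (69) it was 1140 with unadjusted p, 140 without the filter, 408 with the block, 328 with all groups and 500 with DESeq2. In macrophage / cell-free cores (757) it was 1694 with unadjusted p and 1193 with DESeq2, and in macrophage / fibroblast cores (1766) it was 3200 without the fold threshold, 2706 with unadjusted p and 2702 with library totals. In WT hydrogels / cores (6870) it was 11106 without the fold threshold and 11480 without the filter, in hydrogels / cores labelled KO (6688) 10811 without the filter, and for the interaction (0) 294 with unadjusted p and 1 with DESeq2. With a library left out, in the same order of comparisons, it ran from 85 to 304, 49 to 640, 270 to 570, 0 to 0, 4 to 497, 291 to 1055, 1006 to 2523, 6679 to 7125, 6195 to 7453 and 0 to 0.

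Signs changed only for estimates near 0. In hydrogels KO / WT, Col5a2 was 0.0125 with RLE factors and 0.0103 with DESeq2. In macrophage / cell-free cores, Col11a1 was −0.0218 without the filter and −0.00848 with DESeq2. In WT hydrogels / cores, Col1a1 was −0.00917 with library totals, −0.00493 with at least 10 counts in every sample and −0.0915 with the replicate block by title code. In hydrogels / cores labelled KO, Col1a2 was 0.0207 with TMM without the members and 0.0654 without the filter. The blocks by replicate number changed the call of no other member than Col5a2 in macrophage / fibroblast cores, and the pairing by title code only those of Col1a2 (WT) and of Col5a1 and Col11a1 (labelled KO). Same-numbered samples did not deviate together in WT cores fibroblasts / cell-free (−0.0058 to 0.35), fibroblast cores KO / WT (−0.19 to 0.40) and cell-free cores KO / WT (0.036 to 0.36).

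With a library left out, log2 fold changes that changed sign ran, in hydrogels KO / WT, from −0.48 to 0.031 for Col1a2, −0.14 to 0.077 for Col5a2, −0.11 to 0.059 for Col5a3 and −0.58 to 0.023 for Col11a1. In fibroblast cores KO / WT, Col5a2 ran from −0.19 to 0.040. In cell-free cores KO / WT, they ran from −0.23 to 0.14 for Col1a1, −0.19 to 0.19 for Col1a2, −0.014 to 0.27 for Col3a1, −0.011 to 0.15 for Col5a1 and −0.033 to 0.22 for Col11a1. In KO cores fibroblasts / cell-free, they ran from −0.046 to 0.39 for Col1a1, −0.028 to 0.21 for Col1a2 and −0.076 to 0.16 for Col5a3. In macrophage / cell-free cores, they ran from −0.39 to 0.073 for Col1a1, −0.30 to 0.15 for Col1a2, −0.29 to 0.050 for Col5a2 and −0.088 to 0.20 for Col11a1. In WT hydrogels / cores, Col1a1 ran from −0.18 to 0.18, and in those labelled KO, Col1a1 from −0.0025 to 0.67 and Col1a2 from −0.41 to 0.16. The Col3a1 to Col1a1 ratio changed sign in cell-free cores KO / WT (−0.083 to 0.39), macrophage / cell-free cores (−0.040 to 0.53), macrophage / fibroblast cores (−0.36 to 0.21) and hydrogels / cores labelled KO (−0.10 to 0.29). With Col5a1 in place of Col3a1 it was −0.00381 in WT cores fibroblasts / cell-free and −0.12 in macrophage / cell-free cores.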

Other observations

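The balance of the type I chains was looked at after its values were seen, and no test was made of it. Type I collagen is built of 2 chains from Col1a1 and 1 from Col1a2. Per kilobase, the ratio of Col1a1 to Col1a2 was 0.706 ± 0.079 in hydrogels around cores labelled KO and 0.798 ± 0.104 in hydrogels around WT cores (SD, n = 6 each). In cores it was 0.466 ± 0.110 beside macrophages, 0.521 ± 0.111 in KO core // fibroblasts, 0.539 ± 0.043 in WT core // fibroblasts, 0.472 ± 0.032 in KO core // cell-free and 0.480 ± 0.038 in WT core // cell-free (n = 4 each). The lowest hydrogel around a WT core (0.642) lay above the highest WT core // fibroblasts sample (0.600), while the lowest hydrogel around a core labelled KO (0.608) lay below the highest KO core // fibroblasts sample (0.665).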
